A study of Rattus norvegicus with 18 samples.

Results

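The cytosolic ribosomal protein genes were examined in messenger RNA of rat dorsal root ganglia, clusters of sensory nerve cell bodies and their glia beside the spinal cord. Members were the protein-coding genes whose symbol is Rpl or Rps followed by a number and, in some, a closing a, x, y, l or further number. The count table held 94 such genes among 25678. Of these, 69 carry the plain name of a ribosomal protein (called core members here), 41 of the large subunit and 28 of the small subunit. The other 25 have names that mark a paralog or a copy, such as Rpl22l1 or Rps4y2. All 69 core members and 18 of the 25 paralog-named members passed the filter on low counts, so 87 members were tested among 17043 genes. Of the members, 4 lie on chromosome X.

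Rats of a neuropathic pain model and a herbal preparation, Shentong Zhuyu decoction, are named in the study's design text. The labels give 6 groups of 3 libraries: Ctrl (state Ctrl, treatment Ctrl), Ctrl_solvent (state Ctrl, given solvent), Sham_solvent and Sham_herb (state Sham, given solvent or herb), and NPP_solvent and NPP_herb (state NPP, given solvent or herb). The sources used here give no strain, age, sex, way of making the model, dose or sampling time. Whether each library stands for its own animal is not said either, and the p-values therefore reflect the spread among libraries, part of which may be technical.

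Ribosomal proteins build the small and the large subunit of the cytosolic ribosome together with ribosomal RNA. Because the subunits need their proteins in equal amounts, most of these genes are transcribed at high and closely matched levels in nearly all cells. Their messages typically start with a C followed by a run of pyrimidines, the terminal oligopyrimidine tract, through which growth signals control their translation. In sensory neurons ribosomes sit mostly in the cell body, where they form the Nissl substance, and some are found in axons. A few members exist as a general and a tissue-restricted form, such as Rpl3 and Rpl3l, the latter known from striated muscle, or Rpl39 and Rpl39l, the latter known from germ cells.

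Many core members had a pyrimidine-rich start. Windows of 15 bases before and 15 after the annotated start were read from the RefSeq promoter table of build GRCr8, in which 68 members were found by symbol. For 65 of them (53 core, 12 paralog-named) the chromosome was the one the count table gives on its own build, mRatBN7.2. The windows below run 5′ to 3′ on the gene's strand and are shown for some of the genes described in the results, with Rpl39 as the general form beside Rpl39l. They are a choice by name, and the shares over all 65 members are given further on. Capitals mark the longest run of C and T where it has at least 5 bases. The first 6 lines are core members.
Rpl22: gtagtgcgCCCCCCTCCCTTTCTgcctcct
Rps27: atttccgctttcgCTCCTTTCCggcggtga
Rpl17: tagccttcgcgCTTCCTCTTCCTgttagcg
Rpl39: tcttctaatcgcgTTCTTCCggcctgtcct
Rpl12: ggagcaacatccgTCTTTTCggctttcggt
Rpl13a: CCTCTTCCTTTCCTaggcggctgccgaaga
Rpl22l1: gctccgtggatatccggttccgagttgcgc
Rps27l: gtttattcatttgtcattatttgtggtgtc
Rpl7l1: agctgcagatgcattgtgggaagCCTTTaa
Rpl3l: gacctctggtgcctggtggggaggTCCCTT
Rpl22 lies at chr5:168117946-168117975 (plus strand), Rps27 at chr2:177964592-177964621 (minus) and Rpl17 at chr18:70856261-70856290 (plus). Rpl39 lies at chrX:121195882-121195911 (minus), Rpl12 at chr3:36661925-36661954 (plus) and Rpl13a at chr1:104748899-104748928 (minus). Rpl22l1 lies at chr2:113683181-113683210 (plus), Rps27l at chr8:76443643-76443672 (plus), Rpl7l1 at chr9:21695703-21695732 (plus) and Rpl3l at chr10:14258431-14258460 (plus).

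A start base C followed by at least 4 pyrimidines was found in 19 of the 53 core promoters (35.8%), in 0 of the 12 paralog-named ones and in 2.52% of 21851 protein-coding promoters in the table. A run of at least 8 pyrimidines within 20 bases on either side of the start was present in 71.7% of core members, in 41.7% of the paralog-named and in 15.3% of all promoters. The letters CTTTCC, from 40 bases before to 20 after the start on the gene's strand, were present in 28.3%, 8.33% and 2.9%. The letters CCGGAAG on either strand of the whole window of 250 bases before and 50 after the start were present in 34% of core members, 8.33% of the paralog-named and 10.7% of all promoters. TATAAA in the 50 bases before the start was found in 5.66%, 0% and 2.62%. These searches overlap one another, and a match in the letters is a description of the window.

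Most core members were abundant. Their median was 298 CPM (reads scaled to a common library size), against 14.3 CPM over the other 16956 tested genes. On the FPKM scale, which divides reads by gene length and library size, the highest means over 18 libraries were 900.4 for Rpl41, 846 for Rps29, 794 for Rpl23a, 712 for Rpl26 and 645 for Rpl19. Rpl41 encodes the smallest protein of the large subunit, and Rps29 a zinc-finger protein of the small subunit. The lowest core member was Rpl37 with a mean FPKM of 25.6, which is taken up with its copy locus further on. Among tested members the lowest were Rpl39l with 0.613, Rpl3l with 0.176 and Rps17l with 0.131 FPKM. The 7 members that failed the filter had few reads summed over all 18 libraries: 2 in Rps15al1, 4 in Rpl22l2, 24 in Rpl31l2, 25 in Rps15al2, 32 in Rpl5l1, 46 in Rpl30l1 and 83 in Rps19l1. For 3 proteins the paralog-named entry carried the reads and no plain symbol was in the table, with mean FPKM of 232 for Rps9l1, 163 for Rpl35al1 and 107 for Rps19l2.

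Libraries held between 18170925 and 50289652 reads counted to genes. Mitochondrial genes took 8.01% to 11.5% of reads and ribosomal RNA 0.0711% to 0.443%. Sensory neuron markers (Rbfox3, Tubb3, Prph, Avil and 6 more, all detected) summed to between 22860 and 32610 CPM (reads scaled to a common library size) in each library, so the defining markers of the labelled tissue were present throughout. The Y-linked gene Eif2s3y had 3006, 1 and 0 reads in the 3 Ctrl libraries and at least 2180 in each of the others. Kdm5d, also Y-linked, had 334, 0 and 0 reads in Ctrl and at least 214 in each of the others. Libraries of the Ctrl group thus went apart in both genes. No batch is named in the labels.

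Libraries differed widely in how much of their reads the members took, and libraries of the same group lay far apart. Members took 2.22%, 2.25% and 1.83% of reads in Ctrl replicates 1 to 3, and 2.93%, 2.01% and 2.46% in Ctrl_solvent. They took 3.37%, 1.81% and 2.56% in Sham_solvent and 1.89%, 2.06% and 1.90% in Sham_herb. They took 2.05%, 2.26% and 1.66% in NPP_solvent and 2.12%, 2.48% and 1.52% in NPP_herb. Sham_solvent replicate 1 was the highest of all libraries and NPP_herb replicate 3 the lowest, and Sham_solvent held both a high and a low library. Group means ± SD over 3 libraries were 2.10% ± 0.236 for Ctrl, 2.47% ± 0.461 for Ctrl_solvent, 2.58% ± 0.78 for Sham_solvent, 1.95% ± 0.0932 for Sham_herb, 1.99% ± 0.306 for NPP_solvent and 2.04% ± 0.486 for NPP_herb. In ganglia measured in bulk, fewer cells of a type and less RNA per cell cannot be told apart, which holds for every level given here.

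A member score was computed for each library as the mean over the 87 tested members of log2 CPM minus each gene's mean over the 18 libraries. It was highest in Sham_solvent replicate 1 (0.72) and Ctrl_solvent replicate 1 (0.43), and lowest in NPP_herb replicate 3 (-0.51) and NPP_solvent replicate 3 (-0.41). The 3 Sham_herb libraries lay close together at -0.20, -0.083 and -0.19. The 3 Sham_solvent libraries lay at 0.72, -0.30 and 0.22, a wider span than that between any group means. Group means ± SD were -0.011 ± 0.16 in Ctrl, 0.17 ± 0.26 in Ctrl_solvent, 0.21 ± 0.51 in Sham_solvent, -0.16 ± 0.064 in Sham_herb, -0.11 ± 0.27 in NPP_solvent and -0.11 ± 0.37 in NPP_herb.

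**Figure D1:**
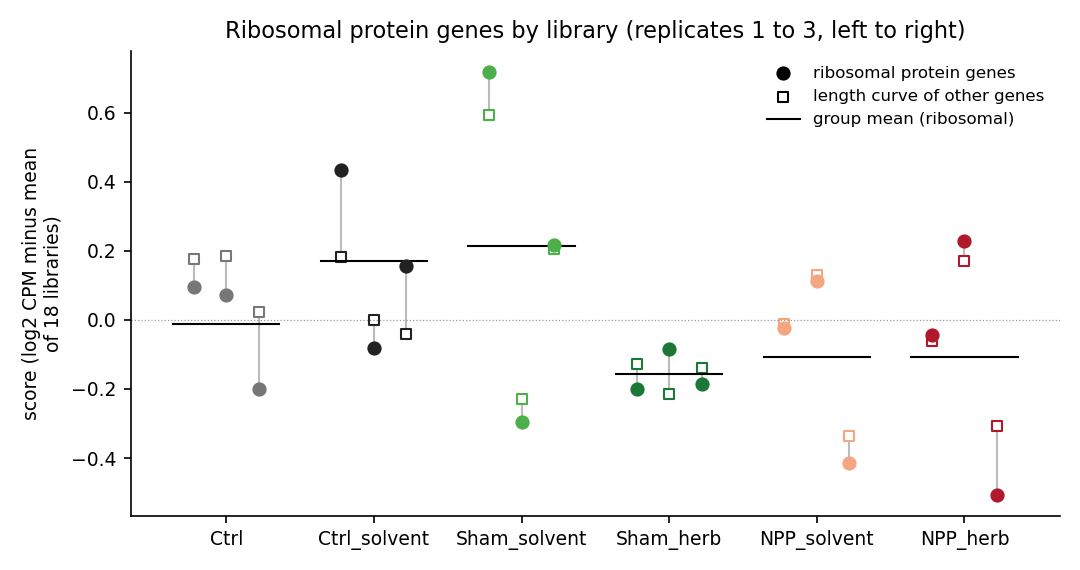
Member score of each library (filled circles, log2 CPM minus the mean of 18 libraries, averaged over 87 members), with replicates 1 to 3 from left to right in each group, the group mean as a line, and as open squares the score that the length curve of all other genes gives at the members' lengths. The circles of Sham_solvent run from -0.30 to 0.72, and in most libraries the square lies close to its circle.

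Members are short genes, and their score followed the gene length tilt of each library. The gene length implied by the ratio of counts to FPKM had a median of 747 bases over the 87 members, with a range of 355 to 2794, against 3771 bases over the other 16956 tested genes. In each library a length slope was taken over the other genes, as the change in log2 CPM (relative to the gene's mean over libraries) per 10-fold gene length. This slope ran from -0.46 in Sham_solvent replicate 1, where short genes were relatively high, to 0.37 in NPP_solvent replicate 3, where they were relatively low. The member score was inversely related to it, with Pearson r = -0.906 and Spearman rho = -0.895 over 18 libraries. Without Sham_solvent replicate 1 and NPP_solvent replicate 3, the libraries farthest from the median slope, r was -0.85 over 16 libraries. On deviations from the group means, which leave out any difference between groups, r was -0.93 over 18 libraries. Both axes come from the same libraries and share their depth: the slope had r = 0.511 with the number of reads and the member score r = -0.601. With the mitochondrial share the member score had r = -0.332 (-0.162 without Ctrl_solvent replicate 1 and Ctrl replicate 2), and with the ribosomal RNA share r = -0.141, which turned to 0.442 without NPP_herb replicate 3 and Ctrl replicate 3.

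**Figure D2:**
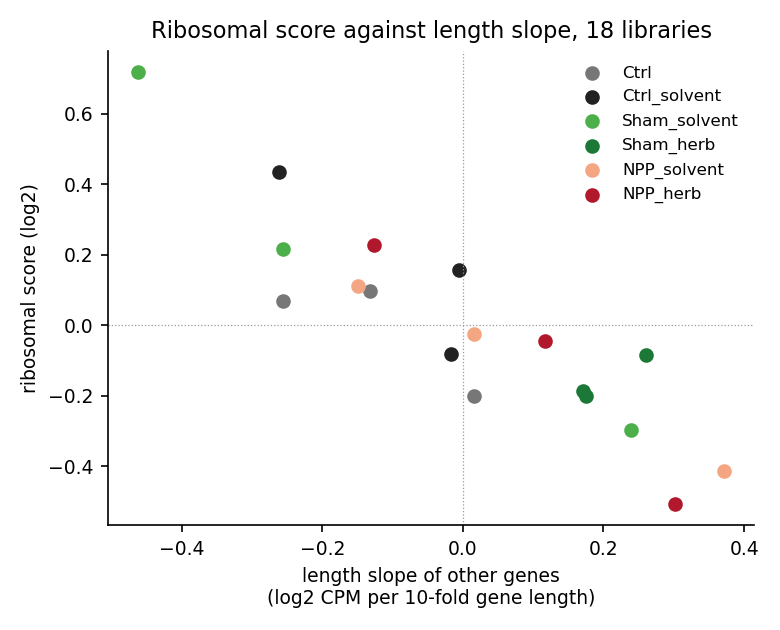
Member score (vertical axis, log2) against the length slope of all other tested genes (horizontal axis, log2 CPM per 10-fold gene length), 1 point per library, coloured by group. The 18 points fall along a descending line (r = -0.906) with Sham_solvent replicate 1 at the upper left and the groups interleaved.

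Short genes with other functions had a score that rose and fell with that of the members, over a narrower range. The 1654 other tested genes of 492 to 1450 bases, a window that covers most members but whose genes are longer (median 1091 bases), had a mean score that followed the member score with r = 0.934 (0.896 without the same 2 libraries). The 233 of these with at least 100 CPM, closer to the members in abundance, followed it with r = 0.885. Over the libraries these 2 scores ran from -0.24 to 0.32 and from -0.33 to 0.52, against -0.51 to 0.72 for the members. When the score read from a lowess curve of all other genes on length was subtracted, the variance of the member score between libraries went from 0.0882 to 0.0159. Group means of the remaining score were -0.14 ± 0.074 in Ctrl, 0.12 ± 0.18 in Ctrl_solvent, 0.023 ± 0.097 in Sham_solvent, 0.0037 ± 0.11 in Sham_herb, -0.035 ± 0.037 in NPP_solvent and -0.041 ± 0.14 in NPP_herb. FPKM divides each gene by 1 length in all libraries, with a median coefficient of variation of 0.349% between libraries in the implied length, so it leaves this tilt between libraries in place.

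Between NPP_solvent and Sham_solvent, the pain model against sham surgery, members were lower with a median log2 fold change of -0.40, but none passed the test. Of the 87 members, 84 had a negative value, all 69 core members among them. Large-subunit core members had a median of -0.39 and small-subunit ones -0.44. The median over all genes tested was 0.0075. That of the other genes of 492 to 1450 bases was -0.23, that of the abundant ones among these -0.27, and that of the other genes of 500 to 750 bases, nearer to the members in length, -0.34. The set of 492 to 1450 bases left out every gene described as a ribosomal protein. The class of 500 to 750 bases, like the other length classes below, left out only the members and so kept Rplp1 and Fau. By the quasi-likelihood test of edgeR with Benjamini-Hochberg adjustment, 0 of 87 members had an adjusted p under 0.05, as did 0% of all genes, with a smallest adjusted p of 0.755 among members. At an unadjusted p under 0.05, 9 members (10.3%) were lower against 3.02% of all genes, and 0 were higher against 2.66%. DESeq2 and limma on log2 FPKM also gave 0 members past the threshold.

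The lowest unadjusted p of any member in this comparison belonged to Rpl22l1, the paralog of the large-subunit protein gene Rpl22. Rpl22l1 measured 61.8, 68.1 and 63.0 CPM in NPP_solvent replicates 1 to 3 and 148, 69.8 and 108 CPM in Sham_solvent. It was the only member lower in NPP_solvent without overlap of the groups, against 3.67% of all genes, and 0 members were higher without overlap, against 4.44%. Its log2 fold change was -0.75 ± 0.24 (SE), with an unadjusted p of 0.006287 and an adjusted p of 0.755 in edgeR. Without Sham_solvent replicate 1 the value was -0.47. Rpl22 itself measured 85.4, 88.2 and 64.9 CPM against 144, 72.7 and 102 CPM, with a log2 fold change of -0.42 ± 0.23.

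Next in order of unadjusted p were Rps12l3 and Rpl9. Rps12l3, a locus named after the small-subunit gene Rps12, measured 0.898, 1.01 and 0.544 CPM in NPP_solvent and 3.17, 0.727 and 1.69 CPM in Sham_solvent (log2 fold change -1.17 ± 0.48). Rpl9, a large-subunit gene, measured 405, 454 and 351 CPM against 813, 394 and 601 CPM (-0.58 ± 0.24). Without Sham_solvent replicate 1 these values were -0.56 for Rps12l3 and -0.31 for Rpl9. In both, Sham_solvent replicate 2 lay within the NPP_solvent range while replicates 1 and 3 lay above it. The 3 members with positive values were the barely detected Rpl39l, Rps17l and Rpl3l, at 2.49 ± 1.40, 1.44 ± 0.99 and 0.15 ± 0.85. Leaving out 1 library gave 1.88 (without NPP_solvent replicate 2) to 3.96 (without Sham_solvent replicate 2) for Rpl39l and 0.68 (without Sham_solvent replicate 2) to 2.80 (without Sham_solvent replicate 1) for Rps17l. For Rpl3l it gave -0.21 (without NPP_solvent replicate 3) to 0.47 (without NPP_solvent replicate 1).

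The median of this comparison depended on single libraries. Without Sham_solvent replicate 1 it was -0.13, without Sham_solvent replicate 2 it was -0.62, and without NPP_solvent replicate 3 it was -0.26. When the length curve of all other genes entered the fit as an offset, the median was -0.087, with 70 members lower and 17 higher, and 6 members lower at an unadjusted p under 0.05 against 2.66% of all genes. Rpl22l1 then stood at -0.38 ± 0.13. The summed sensory neuron markers did not overlap between these groups, with 27870, 28880 and 29250 CPM in NPP_solvent and 29330, 32610 and 31570 CPM in Sham_solvent. Taken singly, 5 of the 10 markers were higher and 5 lower, with a median log2 fold change of 0.0017. The part of these markers in the member values was not tested.

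Between Sham_herb and Sham_solvent, the decoction against solvent in sham animals, members were again lower, with a median log2 fold change of -0.45, and none passed the test. This comparison shares the Sham_solvent libraries with the one above. All 69 core members had negative values, and 84 of 87 members. The median of the other genes of 492 to 1450 bases was -0.33, that of the abundant ones -0.35, and that of the other genes of 500 to 750 bases -0.50. By edgeR, 0 members had an adjusted p under 0.05, as did 0% of all genes (smallest adjusted p among members 0.4906), and DESeq2 and limma on FPKM likewise called 0. The number of members lower at an unadjusted p under 0.05 was 23 (26.4%), against 5.49% of all genes, and 0 were higher against 4.4%.

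Rpl41, Rpl30 and Rps2 had the smallest unadjusted p of the lower members. Rpl41 measured 373, 358 and 378 CPM in Sham_herb and 877, 389 and 586 CPM in Sham_solvent, groups that did not overlap, and its log2 fold change was -0.74 ± 0.26 (-0.41 without Sham_solvent replicate 1). Rpl30, a large-subunit gene, measured 178, 136 and 168 CPM against 341, 222 and 243 CPM, also without overlap (-0.74 ± 0.26). With the reads of its copy locus added (taken up below), the groups did overlap. The sums were 230, 248.5 and 218.1 CPM against 435.5, 225.3 and 315.9 CPM. Rps2, a small-subunit gene, measured 193, 195 and 212 CPM against 330, 205 and 307 CPM, where Sham_solvent replicate 2 lay inside the Sham_herb range (-0.49 ± 0.18). In all, 3 members (Rpl41, Rpl30 and Rpl10l, the last at 1.10 against 2.24 CPM on average) were lower in Sham_herb without overlap of the groups (3.45%), against 6.06% of all genes, and 0 were higher, against 8.52%. In this contrast as well, the Sham_herb libraries lay close together and Sham_solvent replicate 1 far above them.

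Without Sham_solvent replicate 1 the median of this comparison was -0.17, and without replicate 2 it was -0.67. With the length offset it was -0.038, with 52 members lower and 35 higher. At an unadjusted p under 0.05, 2 members were then lower against 3.74% of all genes, and 1 was higher against 2.89%. Rpl41 then stood at -0.22 ± 0.081, and Rpl30 at -0.30 ± 0.21. Adding the reads of loci described as the same protein, taken up below, moved Rpl30 from -0.74 to -0.49. Fibroblast markers did not overlap between these groups, with sums of 1249, 1472 and 1319 CPM in Sham_herb and 1921, 1639 and 1809 CPM in Sham_solvent, and their part in the member values was not tested.

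Between NPP_herb and NPP_solvent, the decoction against solvent in the pain model, members showed no common direction beyond the spread of the libraries. The median log2 fold change was 0.0315, with 60 members higher and 27 lower, against -0.0074 over all genes and -0.02 over the other genes of 492 to 1450 bases. By edgeR 0 members passed, as did 0% of all genes. DESeq2 and limma on FPKM called 0 members too. At an unadjusted p under 0.05 there were 0 members in either direction, against 0.962% of all genes lower and 0.909% higher. The groups did not overlap in 0 members, against 2.61% of all genes lower and 2.69% higher. Leaving out NPP_herb replicate 2 turned the median to -0.14 and leaving out NPP_solvent replicate 3 to -0.097, while leaving out NPP_herb replicate 3 gave 0.21. Leaving out NPP_solvent replicate 1 gave 0.065 and leaving out its replicate 2 gave 0.13, and leaving out NPP_herb replicate 1 gave 0.020. Rpl17, whose protein lines the exit tunnel of the large subunit, measured 239, 306 and 162 CPM in NPP_herb and 320, 347 and 194 CPM in NPP_solvent. Its log2 fold change was -0.28 ± 0.35, which ran from -0.51 without NPP_herb replicate 2 to -0.076 without NPP_herb replicate 3.

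**Figure D3:**
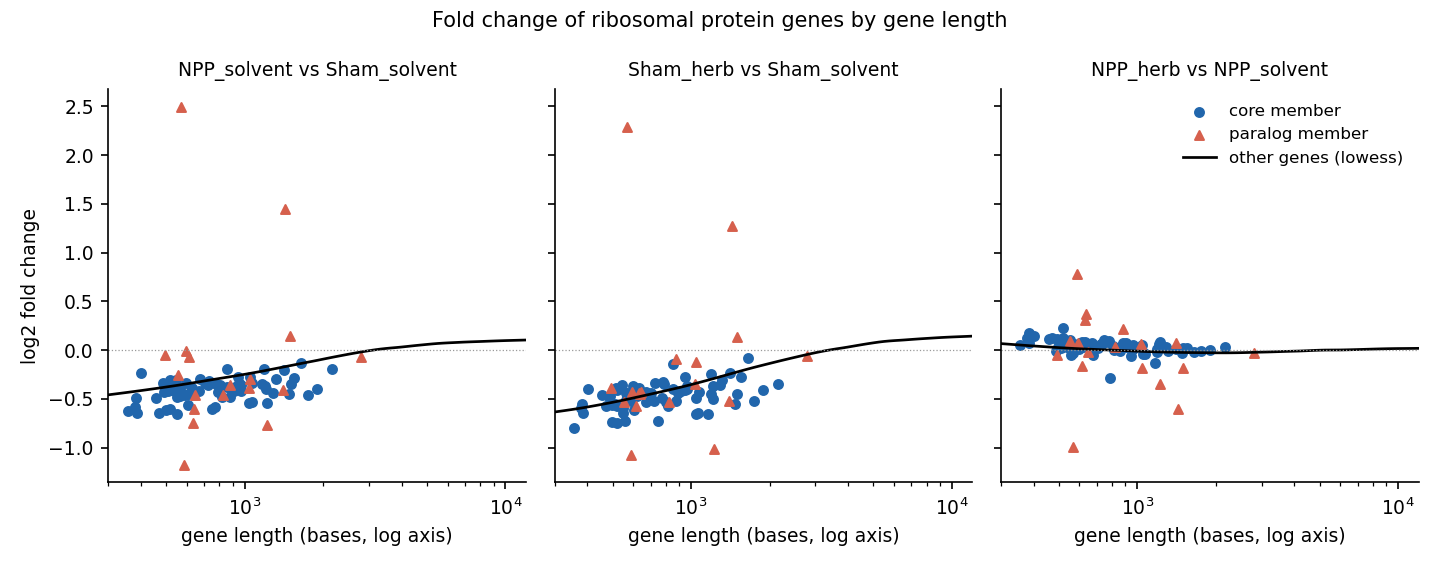
Log2 fold change of each tested member (circles for core, triangles for paralog-named) against gene length in bases (log axis) in 3 comparisons, with the lowess curve of all other tested genes as a line. In the 2 comparisons with Sham_solvent the curve lies below 0 at short lengths and rises toward long genes. Most members scatter around or below it, while the barely detected Rpl39l (2.49 and 2.29) and Rps17l (1.44 and 1.27) lie far above it. In NPP_herb against NPP_solvent the curve and most members stay near 0, with members ranging from -0.99 (Rpl39l) to 0.78 (Rps12l3).

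Among the core members themselves, shorter genes had the lower fold changes in both comparisons with Sham_solvent. Across 69 core members the log2 fold change had r = 0.446 with log10 length for NPP_solvent against Sham_solvent and r = 0.455 for Sham_herb against Sham_solvent, where genes are not independent replicates. By length, the 12 members of up to 500 bases had a median of -0.49 in the first comparison, against -0.37 in the 136 other genes of that length. The 32 members of 500 to 750 bases had -0.42 against -0.34. The 20 members of 1000 to 1500 bases had -0.36 against -0.19, so members lay below other genes of their length in each of these classes. In Sham_herb against Sham_solvent the same 3 classes gave -0.56 against -0.45, -0.47 against -0.50, and -0.44 against -0.26.

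The difference of the decoction's effect between the pain model and sham animals had a member median of 0.49 on the log2 scale, with 83 of 87 members positive, against -0.0168 over all genes. Among genes of 500 to 750 bases the members had 0.53 and the other genes 0.49. In edgeR 0 members had an adjusted p under 0.05, as did 0% of all genes, and DESeq2 and limma called 0 members. At an unadjusted p under 0.05, 0 members were lower against 1.51% of all genes, and 3 members (3.45%) were higher against 1.89%: Rps12l3 at 1.86 ± 0.69, Rpl30 at 0.97 ± 0.37 and Rpl22l1 at 0.75 ± 0.34. The Rpl30 value leaves out its copy locus, whose share of reads differed between libraries of the same group (taken up below). The member median was 0.21 without Sham_solvent replicate 1, and 0.043 with the length offset.

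In the remaining comparisons 0 members and 0% of all genes passed in edgeR, and DESeq2 and limma on FPKM called 0 members. NPP_herb against Sham_herb had a median of 0.083, which turned to -0.091 without NPP_herb replicate 2 and was 0.27 without NPP_herb replicate 3. In it there were 0 members at an unadjusted p under 0.05 against 0.587% of all genes lower and 0.81% higher, and 0 members without overlap of the groups against 4.17% lower and 3.18% higher. Red blood cell markers summed to between 118 and 702 CPM in NPP_herb and between 33.2 and 62.0 CPM in Sham_herb, and skeletal muscle markers to between 10.8 and 16.7 CPM against 9.25 to 10.4 CPM. Sham_solvent against Ctrl_solvent had a median of 0.11, which was -0.16 without Sham_solvent replicate 1, 0.32 without its replicate 2, 0.25 without Ctrl_solvent replicate 1 and -0.0050 without Ctrl_solvent replicate 2. With the length offset these medians were -0.039 and -0.082. In the second of these comparisons 1 member was lower and 1 higher at an unadjusted p under 0.05, against 4.47% and 1.65% of all genes. Without overlap of the groups, 1 member (Rps17l) was lower and 1 (Rpl30) higher there, against 4.12% and 3.02%. With its copy locus added, Rpl30 did overlap, at 435.5, 225.3 and 315.9 CPM in Sham_solvent and 368.5, 224.5 and 286.7 CPM in Ctrl_solvent. NPP_solvent against Ctrl_solvent had a median of -0.30 (-0.18 with the offset, -0.14 without Ctrl_solvent replicate 1, -0.16 without NPP_solvent replicate 3), with 1 member lower and 0 higher at an unadjusted p under 0.05 against 4.01% and 1.49% of all genes. That member was Rps2, at -0.39 ± 0.18. Without overlap of the groups 2 members (Rpl3 and Rps12l3) were lower and 0 higher, against 4.11% and 3.45%. The T and B cell markers (1.68 to 2.74 CPM against 4.47 to 18.5) and the myelinating Schwann cell markers (11680 to 13320 CPM against 9074 to 11610) did not overlap between these 2 groups. The part of these cell types in the member values was not tested.

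Ctrl_solvent against Ctrl, solvent against no treatment in control animals, gave members and other short genes medians of opposite sign. Members had a median log2 fold change of 0.19, with 77 of 87 higher, while the other genes of 492 to 1450 bases had -0.066 and the abundant ones among these -0.12. Among genes of 500 to 750 bases the members had 0.19 and the other genes -0.12, and among those of up to 500 bases 0.083 and -0.0099. In edgeR 0 members had an adjusted p under 0.05, as did 0% of all genes, and DESeq2 and limma on FPKM also called 0 members. At an unadjusted p under 0.05, 1 member (1.15%) was higher against 8.33% of all genes, and 0 were lower against 4.68%. Without overlap of the groups 3 members (Rpl7a, Rps17l and Rps27l) were higher against 8.45%, and 0 lower against 8.15%. With the length offset the member median was 0.26, with 82 of 87 higher, and 44 members were higher at an unadjusted p under 0.05 against 9.31% of all genes. The smallest adjusted p of a member was then 0.101 in edgeR, so 0 members passed. After the length curve, the member score was 0.25, -0.080 and 0.20 in Ctrl_solvent replicates 1 to 3. In Ctrl it was -0.080, -0.12 and -0.22, so Ctrl_solvent replicate 2 lay level with Ctrl replicate 1. The higher values with the offset thus came from Ctrl_solvent replicates 1 and 3, and no fit with the offset left out a library.

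The single member at an unadjusted p under 0.05 without the offset was Rpl17. It measured 244, 257 and 212 CPM in Ctrl and 591, 224 and 490 CPM in Ctrl_solvent, so that Ctrl_solvent replicate 2 lay within the Ctrl range. Its log2 fold change was 0.87 ± 0.35, with an adjusted p of 0.318 in edgeR. Without Ctrl_solvent replicate 2 it was 1.18 ± 0.31 with an adjusted p of 0.0476 in edgeR, in a fit in which 4.22% of all genes passed. The member median was 0.29 without that library, 0.037 without Ctrl_solvent replicate 1 and 0.095 without Ctrl replicate 3.

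Other cell types moved with this comparison. The 8 macrophage markers summed to 104, 130 and 71.7 CPM in Ctrl and to 500.4, 147 and 446 CPM in Ctrl_solvent replicates 1 to 3. The T and B cell markers summed to 3.39, 5.34 and 1.57 CPM in Ctrl and to 18.5, 4.47 and 18.3 CPM in Ctrl_solvent. The sensory neuron markers summed to 30730, 29600 and 30730 CPM in Ctrl and to 26320, 31390 and 22860 CPM in Ctrl_solvent. Skeletal muscle markers summed to between 11.1 and 13.96 CPM in Ctrl and between 7.66 and 10.7 CPM in Ctrl_solvent. Ctrl_solvent replicates 1 and 3 were thus the libraries with the highest immune sums, and they also had the highest member scores after the length curve, at 0.25 and 0.20. Over 18 libraries the remaining member score had r = -0.853 with the sensory neuron score (-0.751 without these 2 libraries), r = 0.694 with the macrophage score (0.408 without them) and r = 0.702 with the T and B cell score (0.312 without them). The part of these cell types in the member values was not tested. The remaining member score was -0.12 and -0.22 in Ctrl replicates 2 and 3, which had at most 1 read of Eif2s3y and 0 of Kdm5d. It was -0.080 in Ctrl replicate 1, which had 3006 and 334. Every Ctrl_solvent library had reads of both Y-linked genes, at least 2373 of Eif2s3y and 214 of Kdm5d. In this comparison the solvent and this difference between libraries can therefore not be fully told apart.

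Members followed one another closely across libraries. Among core members the median pairwise Pearson r of log2 CPM over 18 libraries was 0.934, with a range of 0.347 to 0.994, and after subtraction of the length curve the median was 0.66. Against the mean of all other members, 65 of the 87 had r of at least 0.9. The closest were Rpl11 (0.993), whose protein binds Mdm2 together with Rpl5, and Rpl13a (0.989) and Rps15a (0.988). Rpl11 ran from 175 CPM in NPP_herb replicate 3 to 404 CPM in Sham_solvent replicate 1, and Rpl13a from 426 to 1139 CPM in the same 2 libraries. The least close were Rpl3l (-0.418), Rpl39l (-0.239) and Rps17l (0.301), each with at most 171 reads summed over all libraries.

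**Figure D4:**
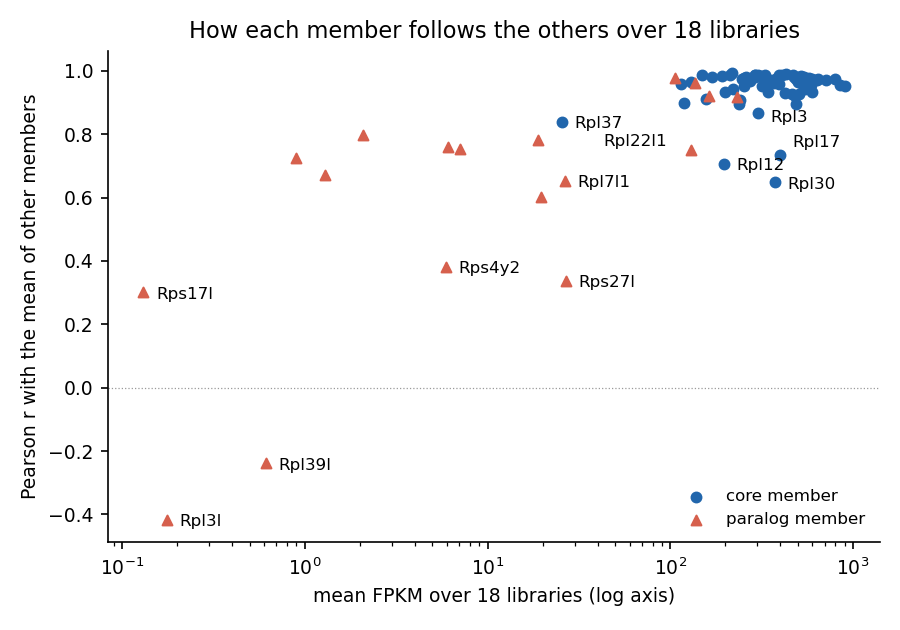
Pearson r of each tested member with the mean of the other members over 18 libraries (vertical axis) against its mean FPKM (log axis), circles for core and triangles for paralog-named members. Most core members lie above 0.9, and Rpl30, Rpl12, Rpl17, Rpl37 and Rpl3 lie below the others.

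Members differed in how strongly they moved. The SD of log2 CPM over libraries had r = -0.434 with log10 length across 69 core members, so longer members tended to vary less. Rpl3, at 1648 bases among the longer core members, had a highest to lowest ratio of 1.70 between libraries, from 402 to 682 CPM. Rpl10, on chromosome X, had a ratio of 1.70 as well, at 855 bases. The highest ratios among core members were 3.64 in Rpl17, at 788 bases, and 3.63 in Rps29, at 355 bases. Rpl12, at 1286 bases, came next with 3.33 and so went against the length pattern. Rpl36a and Rpl36 had ratios of 3.26 and 3.21, at 747 and 558 bases.

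Of the paralog-named members with an ordinary level, several kept apart from the core. Rpl7l1, the longest member at 2794 bases, whose protein is tied to assembly of the large subunit, stayed between 64.4 and 88.6 CPM in all 18 libraries, a ratio of 1.38. Its log2 fold change was -0.066 ± 0.091 for NPP_solvent against Sham_solvent and -0.063 ± 0.091 for Sham_herb against Sham_solvent. Rps27l, a p53 target related to Rps27, had r = 0.337 with the other members. It measured 11.1 CPM in NPP_solvent replicate 2 and 15.2 in Sham_solvent replicate 3, and between 18.7 and 37.5 CPM in the other 16 libraries. Rps27, in contrast, had r = 0.975 and measured 194 and 223 CPM in the 2 libraries where Rps27l was lowest. The 16 tested p53 targets had a median log2 fold change of 0.13 for NPP_solvent against Sham_solvent and -0.10 for NPP_herb against NPP_solvent, with 0 past the threshold in edgeR and, at an unadjusted p under 0.05, 0 in the first and 1 in the second.

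Rpl36al, the autosomal relative of the X-linked Rpl36a, followed the core with r = 0.963, and both had a mean of 112 CPM. Rps19l2 (r = 0.978), Rpl35al1 (0.92) and Rps9l1 (0.919), which carry the reads of their proteins, did so too. Rps10l1 (12.5 CPM on average, r = 0.602), Rps15al4 (10.5 CPM, r = 0.783), Rps4y2 (6.20 CPM, r = 0.382), Rps18l1 (3.74 CPM, r = 0.761) and Rpl31l4 (3.51 CPM, r = 0.752) lay lower. Rpl10l, the relative of Rpl10 known from testis, had 1.59 CPM and r = 0.672, Rps12l3 1.23 CPM and r = 0.797, and Rps12l2 0.53 CPM and r = 0.724. Rpl39l was detected in 17 of 18 libraries, up to 1.59 CPM in Sham_herb replicate 2 and 1.11 CPM in NPP_solvent replicate 2. Rpl3l reached 0.731 CPM in Ctrl_solvent replicate 2 and had no read in Ctrl_solvent replicate 1 and NPP_herb replicate 1.

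Loci outside the rule that carry the description of a member's protein also held reads. Besides the members, the table described 239 other loci as ribosomal proteins, and these took 0.0419% to 0.104% of reads in a library. For 54 of the 69 core members at least 1 such locus was described as the same protein, 219 loci in all. These are called copies here from their description, since no sequence of theirs was compared. Their reads cannot be assigned with certainty, since no source used here says how reads with several matches were counted.

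Rpl30, on chromosome 7, was the clearest case. Its copy locus LOC100362027, on chromosome 10, took shares of their summed CPM that fell in 3 separate ranges. The share was 1.5% to 2.84% in Sham_solvent replicate 2, NPP_herb replicate 1 and NPP_solvent replicate 1. It was 43.4% to 46.2% in Ctrl_solvent replicates 1 and 3, NPP_solvent replicate 2 and Sham_herb replicate 2. In the other 11 libraries it was 21.6% to 27%. No library lay between these ranges, and libraries of 1 group fell in different ones. The copy ran from 3.38 to 167 CPM, 49.4-fold, while the sum of both loci ran 2.66-fold. With the other members Rpl30 alone had r = 0.648, the copy 0.467 and their sum 0.973.

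Rpl12, whose protein sits at the base of the ribosomal stalk, showed the same kind of pattern with LOC102555453 on chromosome X. The copy's share of the sum was 16.5% to 17% in Ctrl replicates 2 and 3 and Ctrl_solvent replicate 2, 6.77% to 8.33% in 6 libraries and 0.751% to 1.47% in the other 9. Rpl12 itself measured 153, 139 and 153 CPM in the first 3 of these, the lowest of all libraries. Adding the copy raised r with the other members from 0.707 to 0.777 only.

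**Figure D5:**
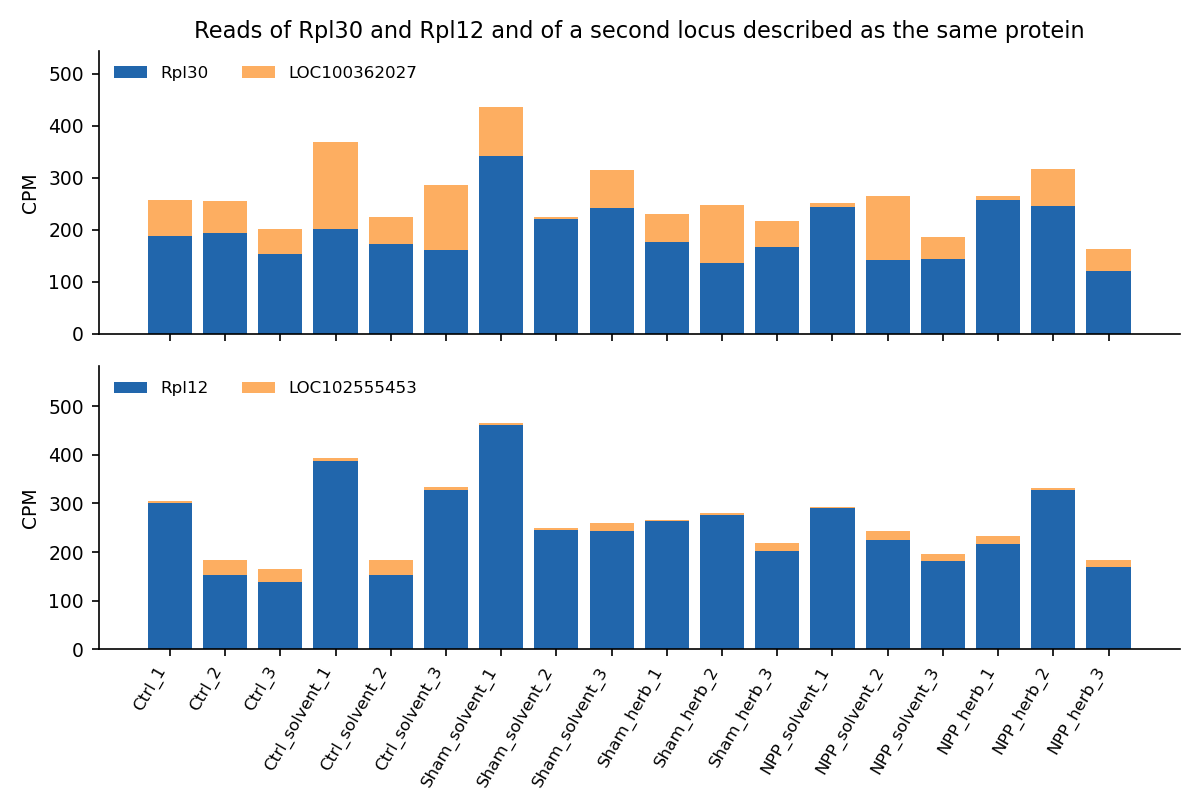
CPM of Rpl30 (top) and Rpl12 (bottom) in each of 18 libraries, with the CPM of LOC100362027 and LOC102555453, loci described as the same proteins, stacked on top. The share of the upper part changes in steps between libraries, and for Rpl30 the height of the whole bar follows the member score.

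For Rpl37 the locus outside the rule was the main one. LOC120093056, on chromosome 2, took 92.3% to 96.9% of the summed CPM in every library, and the RefSeq table of GRCr8 places Rpl37 on chromosome 2 while the count table gives its Rpl37 entry on chromosome 10. Rpl37 alone had r = 0.84 with the other members and the sum 0.981. For Rps12 the locus LOC100361933 took a steady 25% to 34%, and r went from 0.981 to 0.991. With all copies added, the number of core members with r under 0.9 went from 8 to 4. The remaining ones were Rpl17, Rpl12, Rpl3 and Rps2. Copies of Rpl17 took 0.125% of its total and left its r at 0.734.

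Ribosomal protein genes that the naming rule leaves out had values within the range of the core members. Rplp0, Rplp1 and Rplp2 form the stalk of the large subunit, Rpsa is a small-subunit protein also known as the laminin receptor precursor, and Fau encodes a small-subunit protein fused to a ubiquitin-like part. Over 18 libraries the log2 CPM of Rplp1 had r = 0.966 with the member score, that of Rpsa 0.957, Fau 0.949, Rplp2 0.934 and Rplp0 0.914. In NPP_solvent against Sham_solvent the log2 fold changes ran from -0.56 for Fau to -0.24 for Rplp0, and in Sham_herb against Sham_solvent from -0.70 for Rplp1 to -0.37 for Rplp0. None of these passed the threshold in edgeR.

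Other parts of the translation machinery had medians near 0, and the short genes of the respiratory chain had medians near those of the members. The 36 tested translation factors, initiation and elongation factors with a median length of 2247 bases, had a median log2 fold change of -0.0246 in NPP_solvent against Sham_solvent (20 of 36 lower) and -0.068 in Sham_herb against Sham_solvent. The 40 ribosome biogenesis factors, nucleolar proteins that assemble the subunits, had -0.032 and -0.068. The 79 nuclear-encoded respiratory chain subunits, with a median length of 840 bases, had -0.41 and -0.48, with 77 and 76 lower. The 73 mitochondrial ribosomal proteins, which belong to the separate ribosome of the mitochondrion, had -0.25 and -0.32. None of these genes passed the threshold in edgeR. The subunits of the respiratory chain lower at an unadjusted p under 0.05 numbered 27 and 52 in the 2 comparisons, against 3.02% and 5.49% of all genes.

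In Ctrl_solvent against Ctrl both mitochondrial lists and the members had medians of opposite sign. The respiratory chain had a median of -0.17 with 78 of 79 lower and the mitochondrial ribosomal proteins -0.10 with 64 of 73 lower, while the members had 0.19. After the length curve was subtracted, the member score had r = -0.268 with the respiratory chain, -0.16 with the mitochondrial ribosomal proteins, 0.463 with the translation factors and 0.17 with the biogenesis factors, over 18 libraries. Before it, the same values were 0.837, 0.833, 0.923 and 0.496.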

How the data were processed

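Total RNA was captured for messenger RNA and sequenced from both ends with a stranded kit, per the labels' protocols. HISAT2, DESeq2 and build mRatBN7.2 are named, without versions, in the submitters' processing notes. The read counter, its use of strand and the annotation release were not given in the sources used here. Both tables cover the same libraries. The deposited table of raw read counts per gene was not normalized by the authors, and the deposited FPKM table was scaled by the authors to gene length and library size. The FPKM table held 25557 of the genes and all 94 members.

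Genes were filtered with filterByExpr of edgeR 4.0.16 (R 4.3.3), which removed at most 0.0495% of a library's reads. All 18 libraries were fitted in 1 model with a coefficient per group (12 residual degrees of freedom), TMM factors of 0.946 to 1.04 and the robust quasi-likelihood test. p-values were adjusted by Benjamini-Hochberg over all 17043 genes with a threshold of 0.05. CPM are counts scaled to library size after TMM. The prior count behind log2 CPM was 2 and the lowess span 0.3. Gene length was taken as the value that links a gene's counts to its FPKM. Alternatives were RLE factors, no filter, DESeq2 1.42.0, limma 3.58.1 on log2(FPKM + 1) and log2(FPKM + 0.1), a length offset, the length slope as a covariate, the replicate number as a block, a fit of the compared groups alone and each library left out. Adding the reads of copies was chosen after seeing the data. The scripts were tested on simulated data. Total counts set the precision of each value, and ranges cover the libraries measured.

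Members and lists were chosen with earlier results of these data known. Named members were up to 3 per direction with the smallest unadjusted p in the 3 main comparisons, any past the threshold, the 5 highest and 3 lowest by FPKM, the 3 closest to and farthest from the other members, the paralog-named with their partners, and those that failed the filter. Members outside that rule, such as Rpl12, Rpl36 and Rpl37, were named after their values were seen.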

Additional observations from a re-analysis of the deposited data

How the results depend on the processing

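Of the 88 member medians computed under alternatives other than leaving out a library, 79 moved by less than the pooled SD of the member score within groups (0.307) and 9 by more. That SD is one of single libraries and exceeds the median itself in several comparisons, so a change of sign can fall within it. With the length offset, Sham_solvent against Ctrl_solvent went from 0.11 to -0.082. NPP_herb against Sham_herb went from 0.083 to -0.039, and both count among the 79. With a length offset the medians were -0.087 for NPP_solvent against Sham_solvent, -0.038 for Sham_herb against Sham_solvent and 0.043 for the difference of the herb effects. With the length slope as a covariate they were -0.048, 0.083 and -0.043. With the replicate number as a block together with the length offset they were -0.089, -0.036 and 0.040, and with the replicate block alone -0.39, -0.43 and 0.46. Same-numbered libraries did not deviate together (median r of 0.00821 over 45 pairs, 9 of them over 0.1), so the numbers were not taken as pairs. The number of members past the threshold stayed at 0 in all 88 such settings. DESeq2 called 466 genes in Ctrl_solvent against Ctrl, 35 in Sham_solvent against Ctrl_solvent and 40 in NPP_solvent against Ctrl_solvent where edgeR called 0, none of them members. At an unadjusted p under 0.05, DESeq2 counted 25 members lower in NPP_solvent against Sham_solvent (3.86% of all genes) and 46 in Sham_herb against Sham_solvent (6.94%), limma on log2(FPKM + 1) 4 (2.22%) and 5 (3.77%), and edgeR 9 (3.02%) and 23 (5.49%). In the difference of the herb effects DESeq2 counted 10 members higher (2.69% of all genes) and edgeR 3 (1.89%). Leaving out each library gave medians of -0.62 to -0.13 for NPP_solvent against Sham_solvent, -0.67 to -0.17 for Sham_herb against Sham_solvent, 0.21 to 0.72 for the difference of the herb effects, -0.14 to 0.21 for NPP_herb against NPP_solvent, -0.091 to 0.27 for NPP_herb against Sham_herb, and 0 to 1 members past the threshold in Ctrl_solvent against Ctrl. The correlation of the member score with the length slope stayed between -0.928 and -0.875. Depth limits the members of few reads: fold changes of Rpl39l, Rpl3l and Rps17l had SE of 0.83 or more, and the cause of the length tilt was not tested.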

Other observations

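Marker lists of other cell types differed in level and in how far they varied over the libraries. Summed CPM ran from 4171 to 8340 for satellite glia, from 9074 to 15640 for myelinating Schwann cells, from 1104 to 2986 for fibroblasts, from 131 to 187 for endothelial cells and from 7.66 to 22.7 for skeletal muscle. Red blood cell markers ran from 4.07 CPM in Ctrl_solvent replicate 3 to 757 CPM in Sham_solvent replicate 3. After the length curve was subtracted, the member score had r = 0.432 with satellite glia, -0.129 with Schwann cells, 0.0392 with fibroblasts, 0.459 with endothelial cells, -0.217 with skeletal muscle and -0.568 with red blood cells (-0.36 without Ctrl_solvent replicate 3 and NPP_herb replicate 3) over 18 libraries. With the p53 targets it had r = 0.348. The part of these cell types in the member values was not tested.

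Among loci outside the rule, LOC120093072, described as an L37a-like protein on chromosome 5, had a mean of 66.5 CPM, and LOC100910768, described as an S27a-like protein on chromosome 5, had 42.3 CPM. LOC100911847, described as an S14-like protein on chromosome 5, had 18.5 CPM. The symbols Rpl37a, Rps9, Rps19 and Rpl35a were not among the members of the table.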
